A study of Mus musculus with 4 samples.

Results

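The BCL2 family sets the threshold for mitochondrial apoptosis, and 10 of its genes were followed here by name among the 24497 mouse gene rows of an RNA-seq table. Of these, 5 restrain cell death (Bcl2, Bcl2l1, Mcl1, Bcl2a1b and Bcl2a1d) and 5 promote it (Bax, Bak1, Bcl2l11, Bbc3 and Pmaip1). Leukaemic cells were made by introducing NRAS and AE9a, a truncated form of the AML1-ETO fusion, into haematopoietic stem cells from the bone marrow of Tet2-/- mice or of wild-type mice. All cells had been kept in 50 ng/ml SCF with 10 ng/ml each of IL-3 and IL-6, with 2 µg/ml puromycin and G418 at 1 mg/ml for selection. They grew in CD45.1+ B6.SJL hosts aged 6 to 8 weeks that had received 900 cGy, and CD45.2 cells were then enriched from the spleen. The 4 libraries form 2 groups of 2, WT and Tet2 KO, which share the oncogenes, the culture and the host strain. The labels do not state the Tet2 allele, the vectors' promoters, the number of leukaemia clones or whether each library stands for its own mouse. The spread behind every p-value is therefore one between libraries and may be technical.

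In the mitochondrial pathway, BAX and BAK, the effectors, open the outer mitochondrial membrane and release cytochrome c, which starts the caspase cascade. The survival proteins BCL2, BCL-XL (Bcl2l1), MCL1 and A1 (the Bcl2a1 genes) hold the effectors and their activators in check, and the BH3-only proteins BIM (Bcl2l11), PUMA (Bbc3) and NOXA (Pmaip1) relieve that restraint or activate the effectors. MCL1 is a protein of short half-life that myeloid cells depend on, and BCL2 and MCL1 are drug targets in acute myeloid leukaemia.

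The WT libraries differed by no more than read sampling over most genes. Depth is not stated by TPM (a level corrected for transcript length, with the same sum in each library), but the steps between low values put 1 read over 1000 nt at 0.0768 to 0.10 TPM. On that basis the ratio of observed to sampling variance was 0.970 for the WT pair (539 genes, 6 beyond 5 SD) and 5.56 for the Tet2 KO pair (582 genes, 72 beyond 5 SD). WT was therefore taken as 1 sample, the mean of its 2 libraries (n = 1), against 2 Tet2 KO samples (n = 2). Whole-gene Tet2 RNA stood at 43.5 and 43.7 TPM among WT and at 63.7 and 68.1 TPM among Tet2 KO libraries; it does not show whether an exon is deleted, so it checks nothing about the labels. Ptprc, which encodes CD45, was at 292 TPM or more in every library. The progenitor marker Kit was at or under 2.20 TPM, but Cd34 was not low in WT. Its WT levels were 60.6 and 60.7 TPM, and the Tet2 KO libraries had 14.7 and 15.8 TPM. Of 7 genes marking CD45, myeloid and progenitor cells, 3 were higher in Tet2 KO (Kit, Itgam and Cd33) and 2 lower (Cd34 and Csf1r). Neutrophil markers were higher in Tet2 KO in 11 of 12 cases, with summed levels of 1558 and 1593 TPM in WT against 97201 and 76474 TPM, and the 20 most abundant genes took 11.8% of TPM in each WT library against 22.2% and 19.9%. ERCC spike-ins, RNAs added in fixed amount, took 4.66% and 4.62% in WT against 2.95% and 3.19%, so a scaling to these spike-ins raises every Tet2 KO value relative to WT. Xist, a transcript of female cells, was at 0.34 TPM in both WT libraries and at 86.1 and 28.2 TPM in Tet2 KO, so sex and genotype cannot be told apart.

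In the libraries labelled Tet2 KO, 1 survival transcript rose (Bcl2l1), 3 fell (Bcl2, Bcl2a1b and Bcl2a1d) and the most abundant one, Mcl1, did not pass the test. Of the death members, Bax and Pmaip1 fell, and Bak1, Bcl2l11 and Bbc3 did not pass. Changes were tested with limma on log2(TPM + 1) over 11919 genes with at least 1 TPM in at least 2 libraries, two-sided, with Benjamini-Hochberg adjustment at a threshold of 0.05. The members called higher were 1 of 10 against 22.1% of all genes tested, those called lower 5 of 10 against 26.7%, and those called in either direction 6 of 10 against 48.8%. The median log2 change was -0.51 over the members and -0.12 over all genes tested. All 10 members passed the filter on low values, Bcl2 only through its WT level. In all 10 the groups did not overlap, as for 87.0% of all genes tested. With ERCC scaling the split became 3 higher and 2 lower, against 41.5% and 12.5% of all genes (54.0% in either direction), and the median of all genes moved to 0.43. Without the filter on low values, with 18594 genes tested, no member passed in limma, and 4 had an unadjusted p under 0.05.

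**Figure D1:**
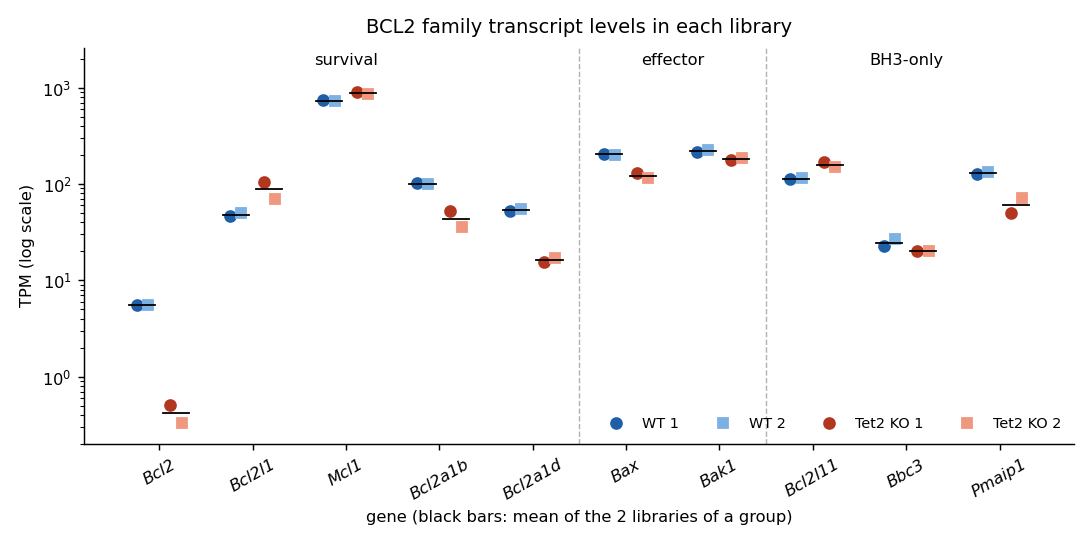
TPM on a log axis for each of the 10 members in each of the 4 libraries, ordered by role; black bars are means of the 2 libraries of a group. Mcl1 lies highest in every library, between 720 and 898 TPM, and Bcl2 lowest, at 5.59 and 5.55 TPM among WT and 0.51 and 0.33 TPM among Tet2 KO libraries.

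The A1 transcripts come from near-identical copies on chromosome 9, so their sequences are shown before their values. The bases just upstream of the annotated start are given 5′ to 3′ on the strand of each gene, from RefSeq windows on GRCm38.p6, and hold only bases before the annotated start. The stretch of Bcl2a1b is chr9:89199023-89199208 (plus strand), that of Bcl2a1d chr9:88731915-88732100 (minus strand), that of Bcl2a1a chr9:88956670-88956899 (plus strand) and that of Bcl2a1c chr9:114329885-114330134 (plus strand). Capitals mark matches on either strand to the AP-1 letters TGANTCA and to GAGGAAGT, a motif of the myeloid factor PU.1; the motifs do not overlap.
Bcl2a1b: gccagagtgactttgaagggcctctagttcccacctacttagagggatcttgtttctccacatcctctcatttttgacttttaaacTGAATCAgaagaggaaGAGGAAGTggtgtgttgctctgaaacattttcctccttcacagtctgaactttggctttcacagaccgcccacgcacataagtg
Bcl2a1d: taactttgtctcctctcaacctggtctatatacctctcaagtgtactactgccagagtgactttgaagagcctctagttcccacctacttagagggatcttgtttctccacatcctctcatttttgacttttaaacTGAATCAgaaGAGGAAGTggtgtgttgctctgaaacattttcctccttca
Bcl2a1a: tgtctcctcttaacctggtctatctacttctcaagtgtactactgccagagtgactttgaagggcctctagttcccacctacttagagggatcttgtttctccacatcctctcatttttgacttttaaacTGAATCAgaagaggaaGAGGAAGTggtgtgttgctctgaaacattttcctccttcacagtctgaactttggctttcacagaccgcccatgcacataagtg
Bcl2a1c: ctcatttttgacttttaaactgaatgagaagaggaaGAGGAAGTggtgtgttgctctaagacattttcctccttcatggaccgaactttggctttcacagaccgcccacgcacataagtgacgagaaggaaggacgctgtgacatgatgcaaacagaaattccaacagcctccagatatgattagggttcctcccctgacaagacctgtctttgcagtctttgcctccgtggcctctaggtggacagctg
The upstream stretches of Bcl2a1b and Bcl2a1d were identical at 135 of 136 aligned bases, not counting gaps. Both motifs lie in the stretches of Bcl2a1b, Bcl2a1d and Bcl2a1a, and only the PU.1 letters in that of Bcl2a1c. Over the first 186 bases of all 32851 RefSeq windows, 5.09% hold the AP-1 letters, 1.60% the PU.1 letters and 0.0731% both. Of the 10 members 9 had a window of 300 bases in the same table. There Bak1 also holds the PU.1 letters (3.20% of all windows), and Bcl2a1b and Bcl2a1d alone of these 9 hold the AP-1 letters (7.81%). The marked AP-1 letters read TGAATCA and match through the N, where the usual AP-1 site has C or G. A match is a description of the letters and not of binding.

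A1 transcripts were lower in Tet2 KO, but reads are split between copies. The Bcl2a1b and Bcl2a1d transcripts of GENCODE were identical at 810 of 817 aligned bases. Of their 50-base stretches, 79.2% and 79.5% also occur in the transcripts of another gene, mainly each other, Gm29094 and Bcl2a1a. Values of single copies are therefore uncertain. Bcl2a1b (chr9:89199209-89207827, plus strand, mm10) stood at 102 and 100.1 TPM among WT and at 51.9 and 35.5 TPM among Tet2 KO libraries. Both Tet2 KO libraries lay below both WT libraries, with a log2 change of -1.22 ± 0.23 (SE, limma adjusted p = 0.00114; -0.63 and adjusted p = 0.118 with ERCC scaling). Bcl2a1d (chr9:88723285-88731914, minus strand) stood at 52.3 and 55.2 TPM among WT and at 15.6 and 17.02 TPM among Tet2 KO libraries, with no overlap. Its log2 change was -1.66 ± 0.22 (limma adjusted p = 1.70e-05), and -1.09 with ERCC scaling (adjusted p = 0.00325). Bcl2a1a, no member, was at 5.02 and 5.06 TPM among WT and at 8.86 and 4.05 TPM among Tet2 KO libraries, where the libraries lay on either side of WT. Bcl2a1c was at or under 0.81 TPM in every library. Summed over the 4 copies, where the split of reads among them matters less, the level was 160 and 161 TPM among WT and 76.6 and 56.5 TPM among Tet2 KO libraries, 2.41-fold lower on average. Gm29094 is not part of this sum.

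Bcl2, the founding survival gene (chr1:106538178-106714274, minus strand), had the largest log2 change of the 10 members in limma with a pseudocount of 1. It stood at 5.59 and 5.55 TPM among WT and at 0.51 and 0.33 TPM among Tet2 KO libraries. The groups were far apart at a low level in both, 13.3-fold in their means. The log2 change on the log2(TPM + 1) scale, which understates the change of low genes, was -2.21 ± 0.26 (limma adjusted p = 4.58e-06), and -1.88 with ERCC scaling (adjusted p = 0.00224). It was -3.47 with a pseudocount of 0.1. With a pseudocount of 5 it was -0.96, smaller than the changes of Bcl2a1d (-1.46), Bcl2a1b (-1.15) and Pmaip1 (-1.06). From the estimated worth of 1 read, the Tet2 KO values rest on about 17 to 45 reads in replicate 1 and 11 to 30 reads in replicate 2, depending on whether the transcript of 2841 or of 7191 nt was counted.

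Bcl2l1, which encodes BCL-XL (chr2:152780668-152831728, minus strand), was the survival gene that rose. Its level was 46.7 and 49.7 TPM among WT and 106 and 70.2 TPM among Tet2 KO libraries. Every Tet2 KO value lay above WT, but the Tet2 KO libraries differed from each other by more than the WT libraries did. The log2 change was 0.83 ± 0.24 (limma adjusted p = 0.0169), 1.42 with ERCC scaling (adjusted p = 0.0137). The call was lost with quantile normalization (adjusted p = 0.0941), median centring (adjusted p = 0.0655) and limma without trend and robust estimation (adjusted p = 0.0700). Without Tet2 KO replicate 1, with both WT libraries as samples, the log2 change was 0.53.

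Mcl1 (chr3:95658788-95663176, plus strand) was the most abundant member in every library. It stood at 741 and 720 TPM among WT and at 898 and 851 TPM among Tet2 KO libraries. The Tet2 KO values lay above those of WT by a mean of 1.20-fold, a log2 change of 0.26 ± 0.26 that did not pass (limma adjusted p = 0.436). With ERCC scaling it was 0.86 and passed (adjusted p = 0.0277). Mcl1 made up 78.2% and 77.4% of the summed TPM of the 5 survival members in WT, and 83.8% and 87.4% in Tet2 KO.

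Of the effectors, Bax fell and Bak1 did not pass. Bax (chr7:45461697-45466898, minus strand) stood at 205 and 201 TPM among WT and at 129 and 116 TPM among Tet2 KO libraries. The groups did not overlap, and the log2 change was -0.73 ± 0.21 (limma adjusted p = 0.00830). This call was lost with ERCC scaling (-0.14, adjusted p = 0.603) and with median centring (-0.64, adjusted p = 0.0555). Bak1 (chr17:27019810-27029009, minus strand) was at 217 and 224 TPM among WT and at 178 and 185 TPM among Tet2 KO libraries, with a log2 change of -0.28 ± 0.21 (limma adjusted p = 0.298) whose sign turned with ERCC scaling, to 0.32. Bak1 overlaps Ggnbp1 on the opposite strand, which was at 1.15 to 1.87 TPM. The ratio of Bak1 to Bax within a library, which no scaling of whole libraries alters, was 1.06 and 1.11 in WT and 1.38 and 1.61 in Tet2 KO.

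**Figure D2:**
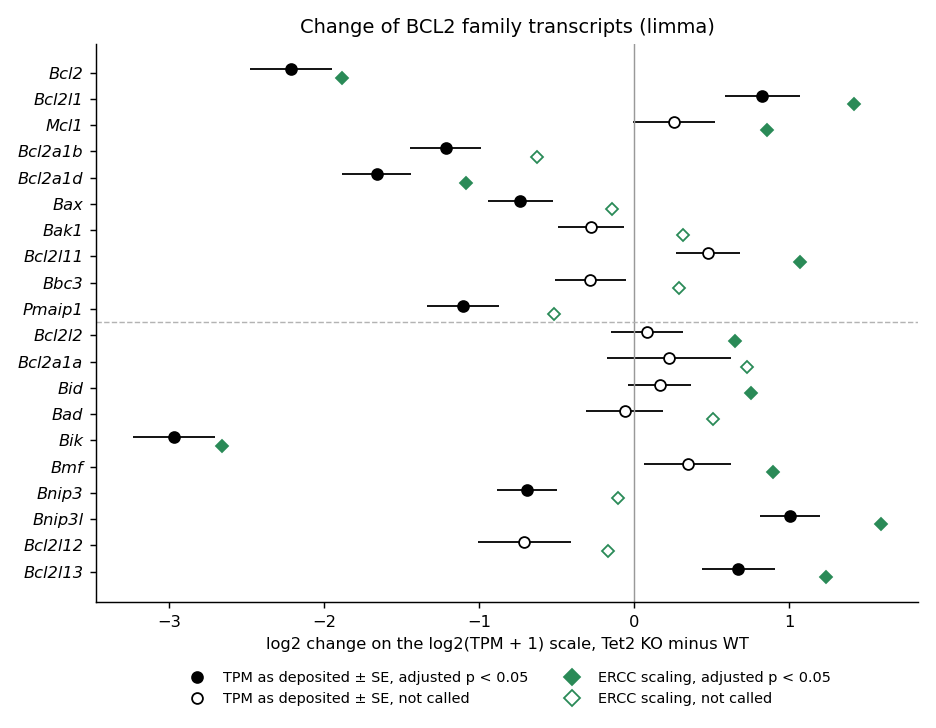
Log2 change (Tet2 KO minus WT) of the 10 members, above the dashed line, and of the 10 other BCL2 family genes that were tested, below it. Circles are TPM as deposited with SE bars from limma, diamonds the same genes with ERCC scaling, and filled marks passed an adjusted p of 0.05; every diamond lies to the right of its circle, and Bcl2, Bcl2a1d and Bik are filled on the left in both.

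Of the BH3-only members Pmaip1 fell, and Bcl2l11 and Bbc3 did not pass. Pmaip1, which encodes NOXA, a partner of MCL1 and A1, stood at 128 and 133 TPM among WT and at 49.7 and 72.4 TPM among Tet2 KO libraries. Both Tet2 KO libraries lay below both WT libraries and differed more from each other than WT did. The log2 change was -1.10 ± 0.23 (limma adjusted p = 0.00215; -0.52 and adjusted p = 0.104 with ERCC scaling). Bcl2l11, which encodes BIM (chr2:128126038-128162547, plus strand), was at 113 and 115 TPM among WT and at 170 and 149 TPM among Tet2 KO libraries. Its groups did not overlap, but the log2 change of 0.48 ± 0.21 missed the threshold (limma adjusted p = 0.0700). It passed with ERCC scaling (1.07, adjusted p = 0.00892). It also passed with both WT libraries as samples (0.48, adjusted p = 0.00983), a fit that takes libraries differing by little more than read sampling as separate samples. Bbc3, which encodes PUMA (chr7:16308393-16318205, plus strand), was at 22.8 and 26.7 TPM among WT and at 20.2 and 20.1 TPM among Tet2 KO libraries, a log2 change of -0.28 ± 0.23 (limma adjusted p = 0.330) that turned to 0.29 with ERCC scaling.

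Since TPM is a level per length, members can be ordered within a library. In WT the order was Mcl1, Bak1, Bax, Pmaip1, Bcl2l11, Bcl2a1b, Bcl2a1d, Bcl2l1, Bbc3 and Bcl2, and no neighbours overlapped between the 2 libraries, which vary little beyond read sampling. In Tet2 KO it was Mcl1, Bak1, Bcl2l11, Bax, Bcl2l1, Pmaip1, Bcl2a1b, Bbc3, Bcl2a1d and Bcl2. There the ranges of Bcl2l1 and Pmaip1 overlapped, as did those of Pmaip1 and Bcl2a1b, so the order of these neighbours is not resolved. Mcl1 and Bak1 lead and Bcl2 closes the order in both groups.

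In every library the transcripts of the 5 survival members outweighed those of the 5 death members. The 5 survival members summed to 947 and 930 TPM among WT and to 1072 and 974 TPM among Tet2 KO libraries, and the 5 death members to 685 and 700 TPM among WT and to 546 and 542 TPM among Tet2 KO libraries. Their ratio, given as a description without a test, was 1.38 and 1.33 in WT and 1.96 and 1.80 in Tet2 KO, a log2 difference of 0.47. The mean death sum in Tet2 KO was 0.786 of that in WT, and the mean survival sum 1.09. Mcl1 makes up most of the survival sum, and leaving it out was an alternative chosen after seeing the data. The log2 ratios without Mcl1 were -1.73 in both WT libraries and -1.65 and -2.14 in Tet2 KO, on either side of WT. Without Bcl2a1b and Bcl2a1d the log2 difference was 0.64, and with the other survival, effector and BH3-only genes of the family added it was 0.32. With those genes added the log2 ratios were near 0 in WT, at 0.079 and 0.029, and 0.42 and 0.33 in Tet2 KO. The added death genes include the mitophagy relatives Bnip3 and Bnip3l, at 66.8 and 46.5 TPM of 238 TPM added in WT replicate 1. The ratio with the other added genes but without Bnip3 and Bnip3l was not computed. Transcript sums do not measure protein, and the proteins differ in half-life and partners.

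**Figure D3:**
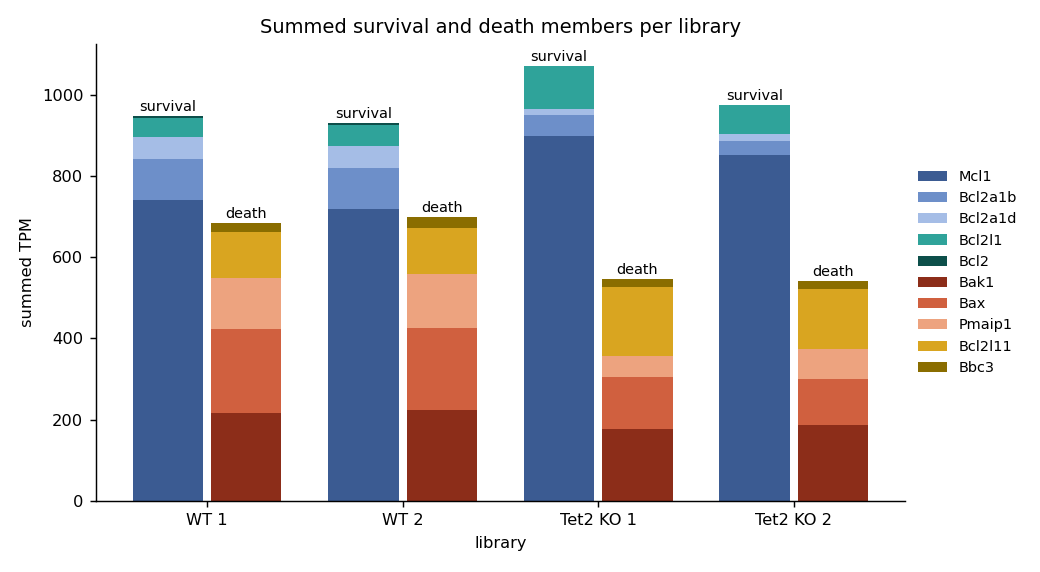
Stacked TPM of the 5 survival members (left bar of each pair) and the 5 death members (right bar) in each library, on a linear axis from 0. Survival sums run from 930 to 1072 TPM and are mostly Mcl1, and death sums fall from 685 and 700 TPM in WT to 546 and 542 TPM in Tet2 KO.

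Ratios between members with related roles were also set out within each library. These pairs were chosen after their values were seen and carry no test. Mcl1 over Pmaip1 was 5.80 and 5.43 in WT and 18.1 and 11.8 in Tet2 KO. Bcl2l1 over Bcl2 was 8.35 and 8.95 in WT and 208 and 213 in Tet2 KO, where it rests on the low Bcl2 values. Bcl2l1 over Bax was 0.227 and 0.247 in WT and 0.825 and 0.607 in Tet2 KO. Bcl2l11 over Pmaip1, the balance of BIM to NOXA transcripts, was below 1 in WT, at 0.881 and 0.870, and above 1 in Tet2 KO, at 3.42 and 2.06. Each of these pairs sets a member with higher values in Tet2 KO over one with lower values, and no member's groups overlapped. That both Tet2 KO libraries lay on the same side of WT therefore follows from the choice of pairs.

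**Figure D4:**
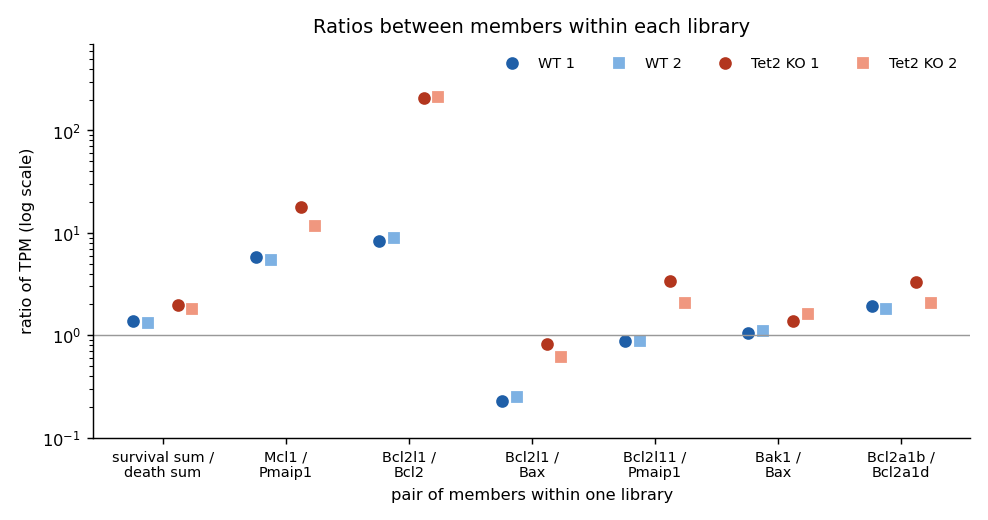
Ratios of TPM between members within one library, on a log axis, for the 4 libraries; the grey line marks a ratio of 1. Bcl2l1 over Bcl2 goes from 8.35 and 8.95 in WT to 208 and 213 in Tet2 KO, and Bcl2l11 over Pmaip1 passes from below 1 to above it.

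Of the 16 other BCL2 family genes, 10 were tested, 2 rose, 2 fell and 6 did not pass, against 48.8% of all genes called, with a median log2 change of 0.12. With ERCC scaling 5 of them were higher and 1 lower, against 41.5% and 12.5% of all genes. Bik, a BH3-only gene, went from 9.49 and 7.89 TPM in WT to 0.20 and 0.28 TPM in Tet2 KO, a log2 change of -2.97 ± 0.27 (limma adjusted p = 1.83e-07) in a gene that passed the filter on low values through WT alone. The relatives of mitophagy moved in opposite directions. Bnip3l, which encodes the mitophagy receptor NIX, went from 46.5 and 48.0 TPM to 102 and 89.8 TPM (1.01 ± 0.19, limma adjusted p = 0.000476). Bnip3 went from 66.8 and 64.6 TPM to 38.0 and 42.7 TPM (-0.69 ± 0.19, limma adjusted p = 0.00744), a call lost with ERCC scaling (adjusted p = 0.597). Bcl2l13 rose from 15.1 and 16.0 TPM to 23.9 and 27.1 TPM (0.67 ± 0.23, limma adjusted p = 0.0266), but did not pass when trend and robust estimation were left out (adjusted p = 0.0523).

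The remaining tested relatives did not pass in limma on TPM as deposited. With ERCC scaling Bid (0.76, limma adjusted p = 0.0338), Bcl2l2 (0.65, adjusted p = 0.0215) and Bmf (0.90, adjusted p = 0.0299) passed as higher. Bid, whose protein links death receptors to mitochondria, was at 84.0 and 89.0 TPM among WT and at 108 and 87.6 TPM among Tet2 KO libraries. Bcl2l2, which encodes the survival protein BCL-W, was at 22.0 and 20.8 TPM among WT and at 21.3 and 24.2 TPM among Tet2 KO libraries. Bad was at 19.8 and 18.8 TPM among WT and at 16.7 and 20.4 TPM among Tet2 KO libraries, and Bmf at 11.5 and 9.37 TPM against 15.5 and 11.8 TPM. The groups overlapped for Bid, Bcl2l2 and Bad, and did not for Bmf. Bid and Bcl2l13 overlap each other on opposite strands, as do Bcl2l12 and Irf3 and Bad and Gpr137, and the strand setting of the counting is not given, so their reads may be shared. Bcl2l12 was at 14.2 and 10.5 TPM among WT and at 6.38 and 8.04 TPM among Tet2 KO libraries (limma adjusted p = 0.0601). Bok, Hrk, Bcl2l14 and Bcl2l15 were under 1 TPM in every library, and Bcl2l10 was listed at 0 in all 4.

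Downstream, 3 of the 14 genes of the apoptosome and caspase list rose and 5 fell, with a median log2 change of -0.24. Over all genes 22.1% were called higher and 26.7% lower. With ERCC scaling limma called 4 of these 14 genes higher and 0 lower, against 41.5% and 12.5% of all genes, and 0 were lower at an unadjusted p under 0.05 as well. The nuclease gene Dffb went from 8.13 and 8.70 TPM in WT to 13.97 and 16.0 TPM in Tet2 KO (0.76 ± 0.27, limma adjusted p = 0.0303). Cycs, which encodes cytochrome c, went from 97.9 and 99.7 TPM to 53.7 and 57.9 TPM (-0.81 ± 0.19), Casp8, the initiator of the death receptor pathway, from 131 and 133 TPM to 74.2 and 80.8 TPM (-0.76 ± 0.19), and Casp6 from 22.0 and 22.9 TPM to 9.58 and 11.5 TPM (-1.03 ± 0.27). The falls of these 3 genes did not pass with ERCC scaling, where the adjusted p was 0.285 for Cycs, 0.436 for Casp8 and 0.0940 for Casp6. Of the 6 genes listed here as caspase inhibitors (Xiap, Birc2, Birc3, Birc6, Naip2 and Naip5), 1 rose and 2 fell. The counts were 3 higher and 2 lower with ERCC scaling. The list name is a label, and whether the product of each gene inhibits caspases was not tested. Birc3, which encodes cIAP2, went from 201 and 201 TPM to 84.1 and 62.5 TPM (-1.46 ± 0.22, limma adjusted p = 6.87e-05) and Birc2 from 59.6 and 63.0 TPM to 27.0 and 27.9 TPM (-1.13 ± 0.20), while Naip2 went from 58.8 and 56.7 TPM to 130 and 102 TPM (0.98 ± 0.21).

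Of 8 mitochondrial partners 2 rose and 1 fell, and of 8 death receptor genes 3 rose and 1 fell, against 22.1% and 26.7% of all genes. With ERCC scaling limma called 2 partners higher and 0 lower (4 and 0 at an unadjusted p under 0.05), and 5 death receptor genes were higher and 1 lower. Over all genes 41.5% were higher and 12.5% lower with that scaling. Vdac2, an outer membrane channel that binds BAK, went from 186 and 186 TPM in WT to 290 and 288 TPM in Tet2 KO (0.63 ± 0.22), but did not pass when trend and robust estimation were left out (limma adjusted p = 0.0550). The fission gene Fis1 went from 82.0 and 73.0 TPM to 133 and 130 TPM (0.76 ± 0.20). Vdac3 went from 209 and 216 TPM to 96.2 and 110 TPM (-1.04 ± 0.21), a fall that did not pass with ERCC scaling (limma adjusted p = 0.0940). Tnfsf10, which encodes the death ligand TRAIL, went from 22.9 and 23.9 TPM to 0.11 and 0.19 TPM (-4.41 ± 0.28, limma adjusted p = 4.01e-09), and the TNF receptor gene Tnfrsf1a from 189 and 193 TPM to 501 and 458 TPM (1.32 ± 0.23). The kinase gene Ripk1 went from 40.2 and 40.9 TPM to 70.0 and 62.2 TPM (0.69 ± 0.19). Tnfrsf10b, the mouse TRAIL receptor gene, was low throughout, at 0.64 and 0.42 TPM among WT and at 2.83 and 2.10 TPM among Tet2 KO libraries (1.17 ± 0.28). It passed the filter through Tet2 KO alone, and Tnfsf10 through WT alone.

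Of 15 tested regulators of the family, 5 rose and 6 fell, with a median log2 change of 0.17, against 22.1% and 26.7% of all genes. With ERCC scaling 8 were higher and 2 lower, against 41.5% and 12.5% of all genes. Trp53, which encodes p53, an inducer of Bax, Bbc3 and Pmaip1, went from 152 and 160 TPM in WT to 60.4 and 61.5 TPM in Tet2 KO (-1.34 ± 0.19, limma adjusted p = 2.84e-05). Mdm2, also induced by p53, rose from 249 and 248 TPM to 551 and 541 TPM (1.13 ± 0.24). The part of Trp53 in these changes was not tested. Myc went from 57.5 and 56.99 TPM to 12.2 and 13.8 TPM (-2.06 ± 0.23), and Huwe1, whose ubiquitin ligase marks MCL1 for degradation, from 107 and 108 TPM to 53.8 and 62.1 TPM (-0.89 ± 0.19); the fall of Huwe1 did not pass with ERCC scaling (limma adjusted p = 0.184). Ddit3, which encodes the stress factor CHOP, went from 42.5 and 41.2 TPM to 180 and 162 TPM (2.01 ± 0.20, limma adjusted p = 6.12e-07). Foxo3, an inducer of Bcl2l11 and Bbc3, went from 24.2 and 22.3 TPM to 52.2 and 53.0 TPM (1.14 ± 0.20), and the cell cycle factor E2f1 from 8.53 and 9.62 TPM to 20.5 and 24.6 TPM (1.22 ± 0.26). Over all 68 other genes of the pathway, 61 were tested, 16 rose and 17 fell, against 22.1% and 26.7% of all genes. With ERCC scaling 27 rose and 6 fell, against 41.5% and 12.5% of all genes.

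**Figure D5:**
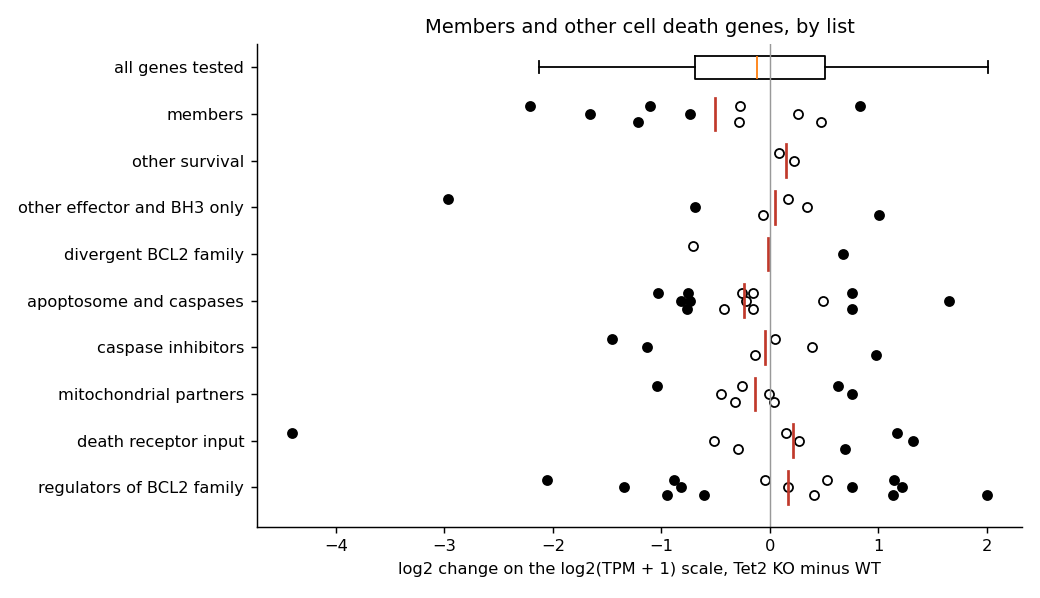
Log2 change (Tet2 KO minus WT) of each tested gene by list; filled points passed an adjusted p of 0.05 in limma, red bars are list medians, and the box shows all 11919 genes tested with whiskers at the 5th and 95th percentiles. The members' median lies at -0.51 and those of the other lists between -0.24 and 0.21, all inside the box, which runs from -0.69 to 0.51.

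Markers of other cell types moved with the groups beside every change above. In addition to the neutrophil markers, 6 of 6 tested dendritic cell markers were lower in Tet2 KO, with summed levels of 432 and 436 TPM in WT against 63.7 and 44.4 TPM, and Clec9a and Cd209a were at or under 0.53 TPM throughout. With ERCC scaling Itgax (limma adjusted p = 0.549) and Xcr1 (adjusted p = 0.191) did not pass. Of 6 tested macrophage markers 4 were lower and 1 higher, with sums of 803 and 804 TPM in WT against 138 and 133 TPM, while Marco was at or under 0.05 TPM. With ERCC scaling the fall of Adgre1 did not pass (limma adjusted p = 0.810), and Spic passed as higher (adjusted p = 0.0184). Mast cell and basophil markers were higher in 3 of 3 tested cases (Cpa3, Hdc and Mcpt8), with sums of 3.66 and 4.14 TPM against 164 and 168 TPM. Most of the Tet2 KO sums was Hdc, at 128 and 127 TPM. Ms4a2 was at or under 1.68 TPM and Fcer1a at or under 0.35 TPM, and neither was tested. Erythroid markers summed to 4.10 and 2.44 TPM in WT against 5.68 and 43.4 TPM, where 1 of 2 tested was higher, Hbb-bt. The second, Hba-a1, was listed at 0 in Tet2 KO replicate 1 and was at 33.9 TPM in replicate 2, and Klf1, Epor and Alas2 were at or under 0.87 TPM. Sums of the T cell, B cell and NK cell markers did not exceed 9.31 TPM in any library, and Ncr1 was listed at 0 in all 4. In these bulk samples fewer cells of a type and less RNA per cell cannot be told apart. The part of these cell types in the change of any BCL2 family gene was not tested.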

How the data were processed

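RNA-seq of 4 libraries of mouse leukaemic cells (2 WT, 2 Tet2 KO by title and genotype) was analysed from the TPM table that the authors deposited. STAR, RSEM and mm10 are named per the submitters' processing notes; versions, annotation and strand setting are not given in the sources used here, and per the labels the mRNA kit used keeps strand. Each library sums to 1000000 TPM over 24589 rows, of which 92 ERCC rows were left out of tests; 27 rows carry a date as a name, and none is named. TPM gives no read depth; steps of low values of single-transcript genes of 600 to 2500 nt (72.6% to 79.1% within 0.2 of a whole multiple) gave the worth of 1 read, assuming fragments of 200 nt, and the sampling check of replicates (pairs over 20 reads).

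The WT libraries were averaged. limma 3.58.1 (R 4.3.3) was fitted to log2(TPM + 1) with an abundance trend and robust estimation, checked on simulated data. This leaves 1 residual degree of freedom, from Tet2 KO, whose spread is taken to hold for WT too. All adjusted p-values are limma's, Benjamini-Hochberg over all 11919 genes. Values in brackets after a pair of levels are log2 changes ± SE. Alternatives were pseudocounts of 0.1 and 5, no filter or 5 TPM, ERCC scaling, quantile normalization, median centring, no trend and robust estimation, both WT libraries as samples with and without a replicate block, and leaving out each library.

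Genes named are the 10 members, their 16 relatives and, of each other pathway list, up to 3 genes called higher and 3 lower with the smallest p. Mdm2 was added to these after its values were seen. Of the genes this rule chose, 2 are not reported here. Members and lists were chosen with earlier results of these data known. Of 24497 mouse rows 23717 matched a GENCODE symbol, which gave coordinates, counted from 1. Identities come from global alignment in Biopython 1.88, with gaps not counted.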

Additional observations from a re-analysis of the deposited data

How the results depend on the processing

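Over 14 alternatives for each of 10 members, 114 of 140 log2 changes kept their sign and side of the threshold, 13 were no longer past it, 11 newly passed and 2 turned. For the other pathway genes these were 697, 53, 73 and 29 of 852. Pseudocounts of 0.1 and 5 and the filter of 5 TPM changed no member's call. Without the filter 18594 genes were tested and limma called 0 members and 0 other pathway genes in either direction, against 4 and 24 with an unadjusted p under 0.05, and 123 and 295 of all genes higher and lower. The members' log2 changes were the same there, -2.21 for Bcl2, 0.83 for Bcl2l1, -1.22 for Bcl2a1b, -1.66 for Bcl2a1d, -0.73 for Bax and -1.10 for Pmaip1, and the cause was not tested. With ERCC scaling 4942 genes were called higher and 1492 lower, 3 members higher and 2 lower, and 27 other pathway genes higher and 6 lower. Mcl1 (0.86) and Bcl2l11 (1.07) then passed, and Bcl2a1b (-0.63), Bax (-0.14) and Pmaip1 (-0.52) did not. Signs turned for Bak1 (0.32), Bbc3 (0.29), Bad (0.51), Apaf1 (0.33), Casp2 (0.16), Diablo (0.42), Endog (0.14), Aifm1 (0.41), Birc6 (0.45), Vdac1 (0.58), Mtch2 (0.33), Opa1 (0.12), Dnm1l (0.27), Fadd (0.25), Cflar (0.082) and Tmbim6 (0.55). Bcl2l1 was no longer past the threshold, leaving 0 members higher, with quantile normalization (0.83), median centring (0.93) and no trend or robust estimation (0.83); the counts at an unadjusted p under 0.05 were 6, 7 and 6 members in either direction. Bax was also lost with median centring (-0.64). Signs turned with quantile normalization for Bad (0.052) and Tmbim6 (0.022), and with median centring for Bad (0.038), Vdac1 (0.088) and Tmbim6 (0.053). With both WT libraries as samples Bak1 (-0.28) and Bcl2l11 (0.48) passed, with 2 members higher and 6 lower, and 3520 and 4517 of all genes. That fit takes WT libraries differing by little more than read sampling as separate samples. The correlation of deviations by replicate number was -0.0112 over 11919 genes (2 pairs). It cannot show whether the numbers pair the libraries, because the WT deviations are mostly read sampling. Adding the replicate block to both WT libraries gave 2 members higher and 5 lower, with Bcl2l11 (0.48) newly past the threshold, and 3495 and 4461 of all genes. Leaving out 1 library gave 2651 to 4321 genes higher and 3192 to 5674 lower, 1 to 3 members higher and 5 to 6 lower, and 15 to 25 other pathway genes higher and 17 to 30 lower. The upper counts came without either Tet2 KO library, when both WT libraries were samples and Mcl1 (0.22 to 0.30 over the 4 omissions), Bak1 (-0.31 to -0.25) and Bcl2l11 (0.38 to 0.57) passed. The sign depended on the library left out for Bcl2a1a (-0.26 to 0.71), Bad (-0.20 to 0.081), Xiap (-0.022 to 0.11), Vdac1 (-0.23 to 0.21), Ppif (-0.15 to 0.22), Bcl2l2 (-0.0079 to 0.17), Dynll1 (-0.056 to 0.40) and Tmbim6 (-0.094 to 0.0037). The log2 difference of the survival to death ratio was 0.41 to 0.53 without 1 library, 0.64 without Bcl2a1b and Bcl2a1d, 0.32 with other relatives added and -0.16 without Mcl1.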
